A study of Mus musculus with 4 samples.

Results

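The genes described here encode proteins of the synaptic vesicle and of the SNARE machinery that fuses it with the cell membrane: Syp, Syn1, Sv2a, Vamp2, Stx1a, Snap25, Cplx1, Cplx2 and Rab3a. They were chosen by name, by matching the gene symbol in a table of RNA-seq counts, and all 9 were found among its 26301 genes. All 9 were also among the 15444 genes with enough counts to be tested. RNA was measured in mouse embryonic stem cells (ESCs) of the line N6, which is WT, and of the line N8, which is REST-/- and is written Rest-/- below, with 2 libraries for each genotype. REST is a transcriptional repressor that binds a DNA element called RE1, found near many neuronal genes, and the comparison asks which genes differ in level when REST is lost. Serum and leukemia inhibitory factor were in the medium of both lines. Feeder fibroblasts supported the cultures at first, and later passages on gelatin alone were meant to leave the RNA free of them. Each genotype is 1 cell line, so genotype and line cannot be told apart. The labels call the 2 libraries of a genotype biological replicates without saying what was repeated, so the p-values measure the spread between these libraries.

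A synaptic vesicle stores neurotransmitter and releases it when its membrane fuses with that of the nerve ending. Fusion is driven by SNARE proteins: synaptobrevin 2 (Vamp2) on the vesicle zippers together with syntaxin 1A (Stx1a) and SNAP-25 (Snap25) on the cell membrane, and complexins (Cplx1, Cplx2) bind the assembled complex and tie its final step to calcium. Synaptophysin (Syp), SV2A (Sv2a) and synapsin I (Syn1) belong to the vesicle itself, and the small GTPase Rab3a rides on it until release. Neurons use these proteins at high level, but membrane fusion goes on in every cell, with related proteins such as SNAP-23 and VAMP3.

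The RE1 motif was searched on both strands of the mouse genome (NCBIM37, the mm9 assembly) as the 15 letters CAGNACCNNGGACAG, of which 12 are informative and N is any base. The sequences below are shown because they are the full matches of the members, and, of the matches to 11 letters, those of the vesicle genes Syn1 and Sv2a, which lack a full one. They are written 5′ to 3′ with 7 bases on each side, and the capitals mark the informative letters that matched. Syp holds a match to all 12 letters at chrX:7215865-7215879 on the plus strand, 24 bp from the nearest annotated transcription start, in sequence annotated as coding exon. That start lies inside the gene, which begins at chrX:7215597. Snap25 holds 2 full matches on the plus strand in an intron, at chr2:136540026-136540040 and chr2:136540076-136540090, which lie 819 and 869 bp from the nearest start and have 35 bases between them. Syn1 has a match to 11 of 12 letters at chrX:20498260-20498274 on the minus strand, 137 bp upstream of the nearest start, with the substitution A12T (the motif's letter, the position counted from the motif's 5′ end, the letter found). Sv2a has an 11-letter match with G11C in an intron at chr3:95987993-95988007, on the strand opposite to the gene.
Syp: cgcgctcCAGcACCgtGGACAGagcccgg
Snap25 (both matches): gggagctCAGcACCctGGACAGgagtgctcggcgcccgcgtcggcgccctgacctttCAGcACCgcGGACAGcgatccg
Syn1: tcggattCAGcACCgcGGtCAGagccttc
Sv2a: cttacccCAGgACCtgGcACAGgaaaggt

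Syp and Snap25 also had an 11-letter match each, 3164 bp upstream of a start in Syp and in an intron 34185 bp from one in Snap25. The other members had weaker matches or none. Rab3a had an 11-letter match (G11C) in an untranslated exon 300 bp from a start, at chr8:73279702-73279716. Cplx2 had 11-letter matches 13203 bp upstream of its start and 15304 bp past it, beyond the end of the gene. Stx1a, Vamp2 and Cplx1 had no match to 11 or more letters inside the gene or within 20 kb of a start, and their nearest full matches lay 478, 954 and 404 kb away. A full match within 20 kb of a start was thus held by 2 of 9 members (22.2%), against 4.41% of the 14512 tested genes with a position. Within 1 kb the shares were 22.2% and 0.717%. With 1 mismatch allowed the shares within 20 kb came to 66.7% and 44.2%. A match describes the letters of the genome and does not show that REST binds there. The lack of one does not show that a gene has no RE1, since the paper counts partial motifs among REST-bound regions too. In promoter windows of RefSeq (GRCm38.p6), which span an annotated start and mostly the bases before it, 0.0578% of 32851 windows held a full match and 0.438% held one of 11 or more letters. Windows were given for 7 members, all but Snap25 and Vamp2, and the Syn1 window alone among them held a match of 11 letters.

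**Figure D1:**
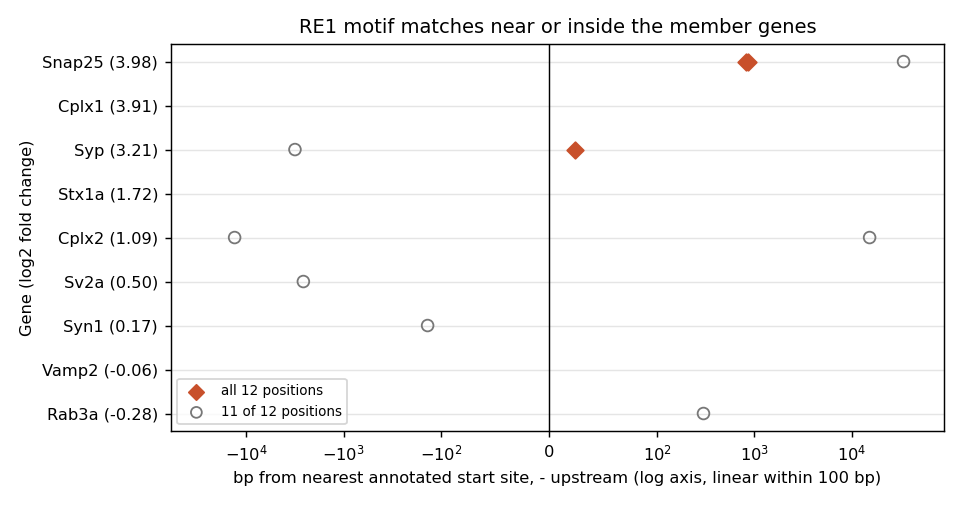
Matches to the RE1 motif inside the 9 members or within 20 kb of a start, by distance in bp from the nearest annotated transcription start (horizontal axis, logarithmic beyond 100 bp), with each gene's log2 fold change of Rest-/- against WT in parentheses. Filled diamonds match all 12 informative letters and open circles 11 of 12. The full matches belong to Syp (24 bp) and Snap25 (819 and 869 bp), while Cplx1 (log2 fold change 3.91, between those of Snap25 and Syp) and Stx1a (1.72) have no symbol. Partial motifs were not searched.

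The WT libraries held 30953863 and 27061056 counts and the Rest-/- libraries 25461270 and 22293966. Values below are CPM, the count of a gene divided by the size of its library after TMM scaling, and 3 counts are worth 0.0969 to 0.135 CPM. Rest itself was at 255 and 233 CPM in WT and at 164 and 176 CPM in Rest-/- (log2 fold change -0.52, adjusted p = 0.526 by edgeR's quasi-likelihood test), and since the sources used here do not say which part of the gene is missing in N8, a count over the whole gene does not check the deletion. The 8 ESC markers looked at were all tested, with summed levels of 4490 and 4300 CPM in WT and 3740 and 3810 CPM in Rest-/-. Their median log2 fold change was -0.21, and 3 of 8 genes lay below WT without overlap, against 15.4% of all genes. Of these 8, Zfp42, named after its values were seen, was at 705 and 541 CPM in WT and at 258 and 226 CPM in Rest-/- (adjusted p = 0.179 by edgeR's quasi-likelihood test and 0.000148 by its exact test with tag-wise dispersion). It had the largest fall of the 8, of which 3 had a positive fold change. The exact test called 0.35% of all genes lower. Of 10 neuron or neural progenitor markers, 7 were tested, with a median log2 fold change of 0.094 and summed levels of 255 and 361 CPM in WT and 319 and 387 CPM in Rest-/-. Neurod6 was at 0 counts in every library. Fibroblast markers summed to 106 CPM in Rest-/- replicate 1 and to 25.3 to 35 CPM in the other libraries, with Lum at 0. Primitive endoderm markers summed to 423 and 496 CPM in WT and to 679 and 655 CPM in Rest-/-, with all 10 fold changes positive and a median log2 fold change of 0.79. Above WT without overlap were 8 of 10 genes, against 16.5% of all genes. Of these, Cubn, Pdgfra and Gata6, named after their values were seen, were called higher by edgeR's exact test with tag-wise dispersion (adjusted p = 4.38e-06, 0.0115 and 0.0227) and not by its quasi-likelihood test. That exact test called 1.16% of all genes higher. The part of other cell types in the results below was not tested, and in bulk RNA more cells of a type and more RNA per cell cannot be told apart.

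Across the 9 members, 4 were higher in both Rest-/- libraries by more than 3-fold: Snap25, Cplx1, Syp and Stx1a. Another 2, Sv2a and Syn1, were higher in both by smaller margins, Rab3a was lower in both, and Vamp2 and Cplx2 overlapped between genotypes. At an adjusted p under 0.05 over all genes tested (edgeR's quasi-likelihood test, Benjamini-Hochberg), 0 of 9 members were called, as were 0.0583% of all genes. At an unadjusted p under 0.05 the same test counted the same 4 members, against 6.71% of all genes. Both Rest-/- libraries lay above both WT libraries for 6 of 9 members, against 16.5% of all genes, and below them for 1 of 9, against 15.4%. A log2 fold change above 1 was seen for 5 of 9 members, against 3.53% of all genes. The median log2 fold change of the members was 1.09 and that of all tested genes -0.0047. An exact permutation test of 2 libraries against 2 cannot give a p below 0.333, so each member's p comes from the fits across all genes.

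The number of members called differed between tests. With edgeR's exact test and tag-wise dispersion, 4 of 9 members were called higher (Syp, Snap25, Stx1a and Cplx1) and none lower, against 1.16% of all genes called higher and 0.35% called lower. DESeq2 called those 4 as well. With any 1 library left out of the quasi-likelihood test, Syp, Snap25 and Cplx1 passed the threshold and Stx1a did not. Such a fit has 1 library in one genotype, which is assumed to vary like those of the other genotype, so these calls are weaker evidence than the fit of 2 against 2, where none passed. The median of the members was 0.50 without WT replicate 1, 0.54 without Rest-/- replicate 2, 1.49 without Rest-/- replicate 1 and 1.70 without WT replicate 2.

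**Figure D2:**
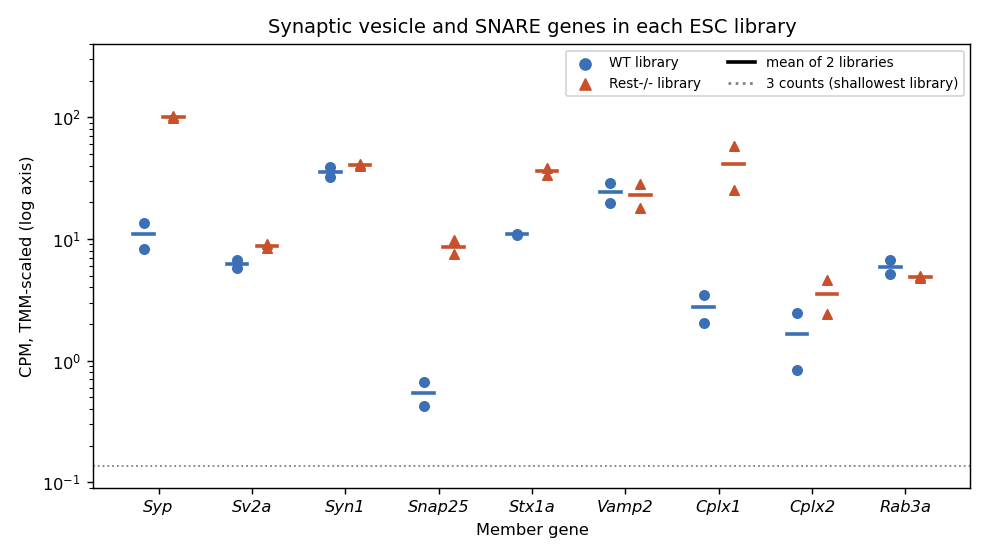
Level of each member in CPM (logarithmic axis) in the 2 WT libraries (circles) and the 2 Rest-/- libraries (triangles), with bars at the means and a dotted line at 3 counts in the shallowest library. Syp, Snap25, Stx1a and Cplx1 show a clear gap between genotypes, and the points of Vamp2 and Cplx2 overlap.

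Syp encodes synaptophysin, an abundant protein of the vesicle membrane (Entrez 20977; chrX:7215597-7230382, plus strand). It was at 8.2 and 13.6 CPM in WT and at 98.9 and 103 CPM in Rest-/-. The Rest-/- libraries lay close together and far above both WT libraries, with 2555 and 2285 counts against 254 and 364. The means were 10.9 ± 3.81 and 101 ± 3.02 CPM (SD, n = 2 each), which is 9.28-fold (log2 fold change 3.21, SE 0.30; adjusted p = 0.109 by edgeR's quasi-likelihood test). By the exact test with tag-wise dispersion the adjusted p was 1.23e-16. Without each library in turn the log2 fold change was 2.89 to 3.62. The annotation places 875 bp of Syp exon under exons of Gm14703 on the other strand. The library kit was unstranded, so reads of the pair cannot be told apart there.

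Syn1 encodes synapsin I, which tethers vesicles to one another and to actin (Entrez 20964; chrX:20437637-20498130, minus strand). Its level was 39.2 and 32.4 CPM in WT and 41.2 and 39.5 CPM in Rest-/-. Both Rest-/- libraries were above WT, and the means differed by less than the WT libraries did. The log2 fold change was 0.17 (SE 0.17; adjusted p = 1 by edgeR's quasi-likelihood test). Syp and Syn1 are both X-linked, and the 548 tested genes of the X chromosome had a median log2 fold change of -0.40.

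Sv2a encodes a glycoprotein of the vesicle membrane that binds the antiepileptic drug levetiracetam (Entrez 64051; chr3:95985074-95999444, plus strand). It was at 5.75 and 6.65 CPM in WT and at 8.44 and 9.12 CPM in Rest-/-. Both Rest-/- libraries lay above both WT libraries. The means were 6.2 ± 0.634 and 8.78 ± 0.482 CPM (SD, n = 2 each). Its log2 fold change came to 0.50 (SE 0.25; adjusted p = 0.911 by edgeR's quasi-likelihood test). It kept its sign without each library in turn, from 0.40 to 0.61.

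Among the SNAREs, Vamp2 encodes synaptobrevin 2, the vesicle partner and the target of tetanus toxin (Entrez 22318; chr11:68901992-68905886, plus strand). It was at 28.6 and 19.6 CPM in WT and at 28.3 and 17.9 CPM in Rest-/-. In both genotypes replicate 1 was the higher library, and the genotypes overlapped. The log2 fold change was -0.059 (SE 0.33; adjusted p = 1 by edgeR's quasi-likelihood test), and it turned to 0.23 without WT replicate 1 or without Rest-/- replicate 2.

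Stx1a encodes syntaxin 1A, a SNARE anchored in the cell membrane (Entrez 20907; chr5:135499352-135526970, plus strand). The WT libraries held 11 and 10.8 CPM and the Rest-/- libraries 33.6 and 38.1 CPM. Replicates differed little beside the gap between genotypes. The means were 10.9 ± 0.182 and 35.9 ± 3.22 CPM (SD, n = 2 each), which is 3.28-fold (log2 fold change 1.72, SE 0.19; adjusted p = 0.112 by edgeR's quasi-likelihood test). The exact test with tag-wise dispersion gave an adjusted p of 0.000415. Across the fits with a library left out the log2 fold change was 1.62 to 1.81.

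Snap25 encodes SNAP-25, the other SNARE of the cell membrane and a target of botulinum toxins (Entrez 20614; chr2:136539189-136608164, plus strand). It was the least abundant member in WT, with 13 and 18 counts there against 251 and 166 counts in Rest-/-. In CPM these are 0.42 and 0.672 in WT and 9.71 and 7.49 in Rest-/-. The lower Rest-/- library was still more than 10 times the higher WT library. The log2 fold change was 3.98 (SE 0.41), or 15.7-fold, which is within the standard error of that of Cplx1 (adjusted p = 0.109 by edgeR's quasi-likelihood test, 4.21e-09 by its exact test with tag-wise dispersion). With a library left out it was 3.66 to 4.34.

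The complexins are small soluble proteins that clamp and then promote fusion. Cplx1 (Entrez 12889; chr5:108947573-108979043, minus strand) was at 2.04 and 3.47 CPM in WT and at 25.3 and 57.5 CPM in Rest-/-. Both Rest-/- libraries were far above WT, but they differed from each other more than for any other member with such a gap. The log2 fold change was 3.91 (SE 0.56), or 15.0-fold, with an adjusted p of 0.194 by edgeR's quasi-likelihood test and of 3.97e-11 by its exact test with tag-wise dispersion. Without Rest-/- replicate 2 it was 3.19, and without Rest-/- replicate 1 it was 4.39. Cplx2 (Entrez 12890; chr13:54472713-54485278, plus strand) had 26 and 66 counts in WT against 62 and 102 counts in Rest-/-, or 0.84 and 2.46 CPM against 2.4 and 4.6 CPM. In both genotypes replicate 2 was the higher library, and the genotypes overlapped by a narrow margin. Its log2 fold change was 1.09 (SE 0.66; adjusted p = 0.995 by edgeR's quasi-likelihood test), and 0.50 to 2.05 with a library left out, lowest without WT replicate 1 and highest without WT replicate 2.

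Rab3a encodes the main Rab GTPase of synaptic vesicles (Entrez 19339; chr8:73278578-73282576, plus strand). It was at 5.17 and 6.65 CPM in WT and at 4.8 and 4.92 CPM in Rest-/-. Both Rest-/- libraries were below WT, and the means differed by less than the WT libraries did. The log2 fold change was -0.28 (SE 0.28; adjusted p = 1 by edgeR's quasi-likelihood test), against a median of -0.13 for the 786 tested genes of chromosome 8. For Syn1, Vamp2 and Rab3a, values that miss the threshold do not show that the genotypes are alike.

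**Figure D3:**
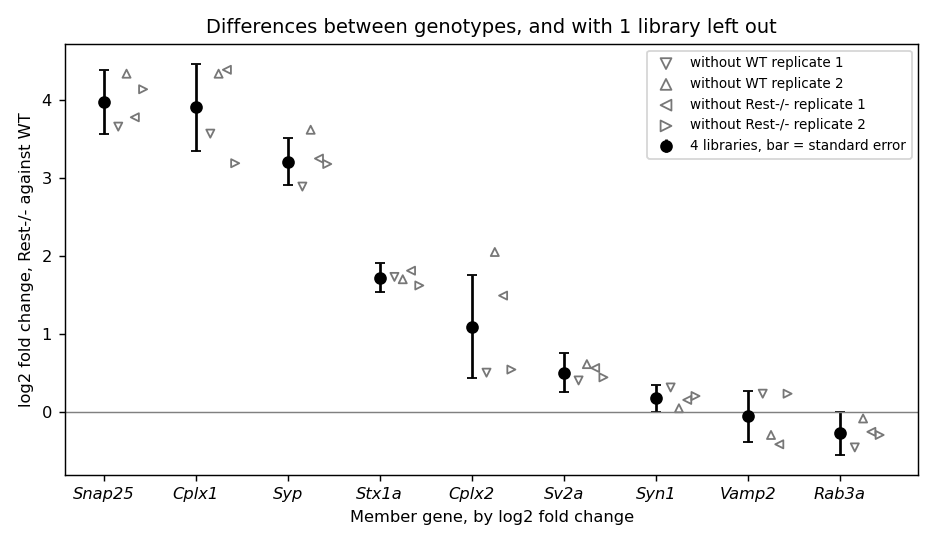
Log2 fold change of Rest-/- against WT for each member (filled circle, bar = standard error, 4 libraries) and the same with 1 library left out (open triangles). Snap25, Cplx1, Syp and Stx1a stay above 1.5 in every fit drawn, and Vamp2 is the member whose points fall on both sides of 0.

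Ranked by log2 fold change among the 15444 tested genes, Snap25 stood at 41, Cplx1 at 46, Syp at 66 and Stx1a at 204. The order of Snap25 and Cplx1 was not stable, and Cplx1 was above Snap25 without Rest-/- replicate 1 (4.39 against 3.78). Cplx2 was at 473, Sv2a at 1606, Syn1 at 3972, Vamp2 at 9172 and Rab3a at 12837. The members thus ran from near the top of the ranking to its lower part, and the SNARE partners Snap25 and Vamp2 stood far apart.

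Levels of different genes can be compared only per length, so CPM was divided by the kilobases of exon of each gene. On that scale the WT order was Syn1 (10.9), Vamp2 (6.33), Stx1a (4.1), Rab3a (2.65), Syp (2.09), Sv2a (1.34), Cplx1 (1.26), Cplx2 (0.335) and Snap25 (0.0804 CPM per kb). In Rest-/- it was Syp (19.4), Cplx1 (18.9), Stx1a (13.5), Syn1 (12.2), Vamp2 (6.07), Rab3a (2.18), Sv2a (1.89), Snap25 (1.27) and Cplx2 (0.711 CPM per kb). Neighbours with overlapping libraries were Rab3a and Syp, and Sv2a and Cplx1, in WT, and Cplx1 with both Syp and Stx1a in Rest-/-. With the longest transcript as length, Vamp2 came to 10.9 CPM per kb in WT beside 11 for Syn1, Syp to 3.83 beside 3.8 for Rab3a, and Syp to 35.5 in Rest-/-. The median over the tested genes was 6.36 CPM per kb in WT and 6.41 in Rest-/-. By exon length, Syp, Cplx1 and Stx1a were thus below the median tested gene in WT and above it in Rest-/-. Snap25 stayed below it in both genotypes despite its fold change, and the SNAREs were at uneven levels, with Snap25 at 1.27 beside Stx1a at 13.5 and Vamp2 at 6.07 CPM per kb in Rest-/-.

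Each member belongs to a family of related proteins, some of them used by all cells, and the share a member holds of its family's summed level per kb gives its place among them. Snap25 held 0.128% and 0.179% of its family in WT and 2.43% and 1.75% in Rest-/-. The rest was Snap47 (32.8 CPM per kb in WT and 39.7 in Rest-/-), the widely used Snap23 (11.5 and 12.3) and Snap29 (7.41 and 7.73). Syp held 3.24% and 4.33% of its family in WT and 28.8% and 27.9% in Rest-/-, while synaptogyrin 2 (Syngr2), found in many tissues, was the leading gene in both genotypes (31.3 and 28 CPM per kb). Stx1a held 8.58% and 8.01% in WT and 21.4% and 23.3% in Rest-/-, beside Stx3 and Stx4a, which led the family in both. For these 3 families the member's share was higher in both Rest-/- libraries than in both WT libraries, and in each of them a relative not among the members remained in the lead.

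Cplx1 led its family in every library, with 82% and 75.5% in WT and 94.4% and 96.1% in Rest-/-, and the family total was 1.62 ± 0.683 CPM per kb in WT and 19.8 ± 10.7 in Rest-/- (SD, n = 2 each). Syn1 held 97.6% to 98.4% of the synapsins in all libraries, and Sv2a 76.4% to 86% of the SV2 family. Vamp2 held 18.8% and 11.9% in WT and 17.9% and 11.2% in Rest-/-, behind Vamp3 at 58.1% to 62.3%. Its relative Vamp7 had 0 counts in every library and no matched exon length, so it is not part of these shares. Rab3a held 47.4% and 39.9% in WT and 36.1% and 27.3% in Rest-/-, and its close relative Rab3c held 0.074% and 0.168% in WT and 7.27% and 6.32% in Rest-/-. In families where the member's share did not separate the genotypes, namely the synapsins and Vamp2, the share varied as much between replicates as between genotypes.

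**Figure D4:**
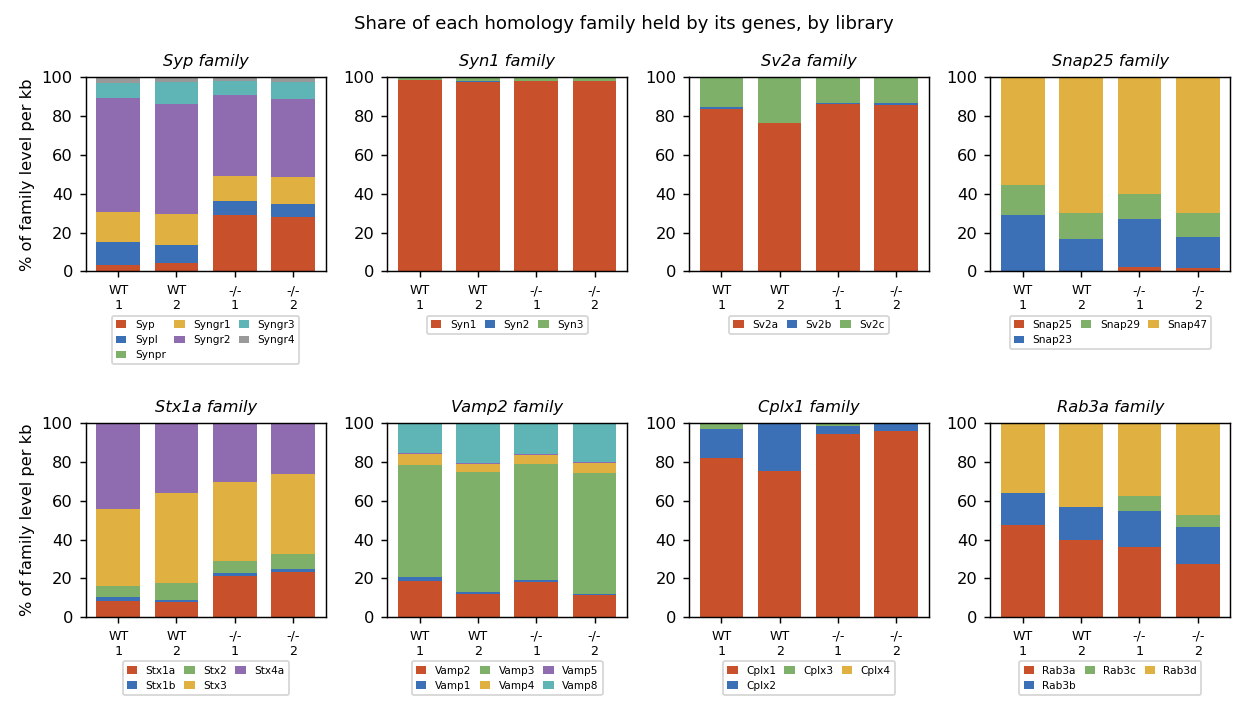
Share (percent, bars sum to 100) of each family's summed level per kb held by each of its genes in WT libraries 1 and 2 and Rest-/- libraries 1 and 2, with the member that names the family in orange at the bottom. The Syp share is 3.24% and 4.33% in WT and 28.8% and 27.9% in Rest-/-, Snap25 stays under 2.5%, and Vamp2 follows the replicate rather than the genotype. Vamp7, without counts, is not drawn.

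A wider list of 61 other genes of the release machinery was described in the same way. Of these, 54 were tested, and 0 were called by edgeR's quasi-likelihood test, while 6 had an unadjusted p under 0.05 (6.71% of all genes did) and edgeR's exact test with tag-wise dispersion called 4 higher and 0 lower (1.16% and 0.35% of all genes). Their fold changes were split, with 29 positive and 25 negative, and the median was 0.013. Both Rest-/- libraries lay above WT for 12 of the 54 genes and below for 7, against 16.5% and 15.4% of all genes. A log2 fold change between -0.5 and 0.5 was seen for 48 of the 54, against 81.3% of all genes and 3 of the 9 members. By role, the median was -0.037 for 14 vesicle membrane genes, 0.019 for 5 vesicle SNAREs, 0.20 for 7 target SNAREs, -0.024 for 14 SNARE chaperones and regulators, and 0.11 for 14 genes of the Rab3 cycle. The vesicle SNAREs other than Vamp2 all overlapped between genotypes.

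The list's large values were in regulators and in the Rab3 cycle. Stxbp5l encodes tomosyn-2, which binds syntaxin and limits release, and its WT counts were 7 and 8 beside 122 and 85 in Rest-/- (log2 fold change 4.01, SE 0.40; adjusted p = 0.109 by edgeR's quasi-likelihood test). The WT libraries held 1 and 3 counts of Rab3c against 100 and 101 for Rest-/-, a ratio of 60.5 with an exact 95% counting interval of 23.3 to 224 (adjusted p = 0.109 by edgeR's quasi-likelihood test). With a library left out, and so with 1 library in one genotype, that test passed Rab3c each time and Stxbp5l without WT replicate 2 or without Rest-/- replicate 2. Rph3a encodes rabphilin, an effector of Rab3, with counts of 20 and 6 in WT beside 112 and 55 in Rest-/- (log2 fold change 2.94, SE 0.65; adjusted p = 0.436 by edgeR's quasi-likelihood test). Leaving out WT replicate 1 gave a log2 fold change of 3.89 for Rph3a and 5.17 for Rab3c, and leaving out WT replicate 2 gave 2.39 and 6.83. Madd encodes the exchange factor that loads Rab3 with GTP, and was at 29.8 and 25.1 CPM in WT and at 67.8 and 81.5 CPM in Rest-/- (log2 fold change 1.44, SE 0.19; adjusted p = 0.166 by edgeR's quasi-likelihood test). These are the 4 genes called by the exact test with tag-wise dispersion. Thus Rab3a had lower values in both Rest-/- libraries while its relative Rab3c, its effector Rph3a and its exchange factor Madd had higher ones. Cplx3, the other list gene with a log2 fold change above 1 (2.65, SE 0.65), had low counts, 3 and 1 in WT against 13 and 9 in Rest-/- (adjusted p = 0.526 by edgeR's quasi-likelihood test).

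In the other direction, Rab3il1, a further exchange factor for Rab3a, was at 21.7 and 26.5 CPM in WT and at 7.97 and 11.7 CPM in Rest-/- (log2 fold change -1.29, SE 0.28; adjusted p = 0.438 by edgeR's quasi-likelihood test). Its adjusted p was 0.0935 by the exact test with tag-wise dispersion and 0.0195 by DESeq2. The other genes with separate genotypes given here, taken up by the rule for named genes, had small differences. The log2 fold changes were 0.27 for Doc2a and 0.25 for Syn3. They were -0.23 for Stx4a, -0.20 for Sypl, -0.17 for Snapin, which binds SNAP-25, and -0.098 for Nsf, the ATPase that takes used SNARE complexes apart. Exons of Doc2a, Syn3, Snapin and Stx4a overlap those of a gene on the other strand.

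A full RE1 match within 20 kb of a start was held by 3 of the 60 list genes with a position (5%), near the 4.41% of all tested genes. These are Nsf (log2 fold change -0.098), Scamp3 (-0.059) and Rph3a (2.94). Rph3a had a match 105 bp upstream of a start at chr5:121459625-121459639, printed here because Rph3a is the list gene with high values in Rest-/- that holds one.
Rph3a: tggcagtCAGtACCacGGACAGcaccagg
This match lies on the strand opposite to the gene, and a second full match, 48322 bp from a start in an intron at chr5:121411198-121411212, lies on the same strand as the gene.

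**Figure D5:**
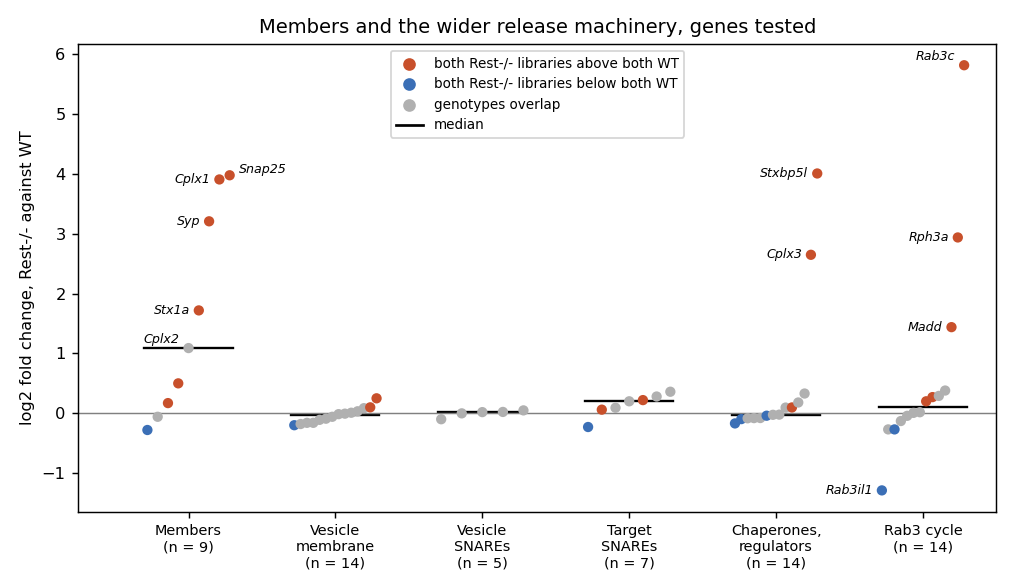
Log2 fold change of Rest-/- against WT for the 9 members and for the 54 tested genes of the wider list by role, 1 point a gene, orange where both Rest-/- libraries lie above both WT libraries, blue where both lie below, grey where they overlap, with a line at each median. The members' median is 1.09, the medians of the roles lie between -0.037 and 0.20, and the list genes with high values are in the regulators and the Rab3 cycle.

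The genes outside these lists whose profile over the 4 libraries was most like that of Syp, by Euclidean distance between centred log2(CPM + 0.5) values among 15381 genes, were Scg5 (0.206), Celsr3 (0.253) and Galnt9 (0.306). Scg5, which encodes the secretory chaperone 7B2, was at 0.0646 and 0.261 CPM in WT and at 5.11 and 5.87 CPM in Rest-/-. Those most like Snap25 were Scgn (0.0878), Actl6b (0.326) and Celsr3 (0.326). Scgn, a calcium-binding protein, was at 0.194 and 0.336 CPM in WT and at 6.73 and 5.06 CPM in Rest-/-. Among the members, Snap25 was the nearest to Syp (0.389), followed by Cplx1 (0.886) and Stx1a (1.61), and Rab3a was the farthest (3.45). The 0.5 CPM added before taking logs compresses genes near 0: Scg5 had a log2 fold change of 5.07 against 3.21 for Syp despite its small distance.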

How the data were processed

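The authors sequenced indexed TruSeq libraries of total RNA (unstranded kit) and deposited whole-number read counts per Entrez gene, not normalized. Per the labels, Subread and featureCounts were used on mm9. Their versions, the annotation and the strand setting are not given in the sources used here. Rows without an identifier (368, with no values) were left out. From the counts, genotypes were compared with edgeR 4.0.16 in R 4.3.3 (TMM, filterByExpr, quasi-likelihood test, Benjamini-Hochberg over 15444 genes, adjusted p under 0.05). The fit was also run on simulated counts. These were drawn with less spread than the WT libraries have, so that run does not show the power of the test here. Positions and exon lengths came from GENCODE M1 on NCBIM37 (22775 identifiers with 96% of counts), and RefSeq GRCm38.p6 gave symbols and promoters only. Figures and sums used Python 3.11.15, and DESeq2 1.42.0 was an alternative.

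The members and lists were chosen with earlier results of these data known. The genes named are the members, Rest, relatives of members, the 3 genes nearest to Syp and to Snap25, list genes with adjusted p under 0.05, and up to 6 list genes per direction with the largest log2 fold change among those with non-overlapping genotypes whose higher mean reached 1 CPM. Of these, 1 is not reported here. Alternatives were other scalings, filters, dispersions and prior counts, DESeq2, a replicate block, each library left out, other motif stringencies and transcript lengths. Intervals and floors cover counting error only.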

Additional observations from a re-analysis of the deposited data

How the results depend on the processing

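Under edgeR's quasi-likelihood test 9 of all genes (8 higher, 1 lower), 0 members and 0 genes of the wider release list were called. Without a filter on low counts the calls were 53 (49 higher), 2 and 2, and with at least 10 counts in every library 3 of all genes. The exact test gave 233 (179 higher), 4 and 4 with tag-wise dispersion and 343 (246 higher), 4 and 5 with common dispersion. DESeq2 gave 238 (180 higher), 4 and 5, and of these 5 list genes 1, Rab3il1, was lower. With each library left out in turn the calls ran from 60 to 113 for all genes, were 3 for the members each time, and were 1 to 2 for the list, in fits that assume the lone library of a genotype to vary like the other genotype. The cause was not tested. RLE, upper quartile and library size scaling and a prior count of 2 left 0 members called. With a library left out Vamp2 ran from -0.42 to 0.23 (main value -0.059), with 0.23 without WT replicate 1 and without Rest-/- replicate 2. Members with a motif match near a start went from 2 to 6 with 11 or more positions, as the looser search implies. The median level per kb of the members in Rest-/- went from 6.07 to 10.5 CPM per kb with the longest transcript as length.

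The labels number the replicates 1 and 2 in both genotypes without stating a pairing. Same-numbered libraries deviated together (r = 0.81 across 15444 genes, which are not independent, and 7 of 9 members in the same direction). With the replicate block the calls were 2621 of all genes (1308 higher, 1313 lower), 5 members (Cplx2 in addition, adjusted p = 0.0247 by edgeR's quasi-likelihood test) and 9 list genes. Low counts limit Snap25 and Cplx2 in WT and Rab3c, and with 2 libraries a genotype the spread is poorly known.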
